A study of Piaractus mesopotamicus with 9 samples.

Results

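Ribosome biogenesis and RNA polymerase I genes were followed in muscle cells of the pacu, a South American freshwater fish. The genes were chosen by their annotated names, through a list of symbol stems (polr1, ubtf, fbl, ncl, npm1, nop, nol, utp, rrp, tsr and others), and by a mean raw count of 10 or more over the 9 libraries. A stem is matched to the name alone, without any measured value, but the module was chosen with earlier results of these data known. The stems matched 63 gene names, and 62 of the 13162 names that passed the count minimum belong to the module. The name left out, nol4la, had a mean raw count of 0.444 in each of its contigs, and the lowest mean inside the minimum was 20.9 for utp23. No tested name matched the stems dkc1, tcof1, brix1 and nip7, which are not analysed here.

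Messenger RNA was sequenced from cells of pooled juvenile fast-twitch muscle, grown for 8 days until myotubes formed and then held for 12 h in a medium free of amino acids, in all groups. The AA group (3 libraries) next spent 24 h in a DMEM-based medium containing amino acids. The IGF1 group (3 libraries) spent 24 h in the restriction medium supplemented with recombinant gilthead sea bream IGF1, and the CTR group (3 libraries) remained in that restriction medium, 36 h in all. These times come from the treatment protocol, while the sample characteristics give 12 h for AA and IGF1. AA differs from CTR in the base medium as well as in its amino acids, so the components cannot be told apart. The study worked with 3 independent cell cultures, without stating whether libraries of the same number share a culture, and p-values therefore measure only the spread between these libraries. AA and IGF1 were each compared to the same CTR libraries, and the values of the comparisons are not independent of each other.

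Ribosome production starts in the nucleolus, where RNA polymerase I (Pol I), guided by the upstream binding factor UBF, transcribes the long ribosomal RNA precursor. Small nucleolar ribonucleoproteins (snoRNPs) then modify the precursor at set positions, box C/D particles by methylation and box H/ACA particles by turning uridine into pseudouridine. A large complex, the small-subunit processome, and separate sets of large-subunit factors fold, cut and export the parts. The pathway consumes much of a growing cell's energy and is known to respond to nutrients and growth factors through MTOR and MYC, and it increases in growing skeletal muscle of mammals.

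Total raw counts were 1366043 to 14297795 in AA, 4099124 to 53525876 in IGF1 and 13394809 to 30928843 in CTR. AA replicate 3 was the shallowest library, with a median of 17 raw counts per gene of the module, 14 of the 62 genes under 10 counts, and nol12 and tsr3 at 0. One count there equals 7.03 normalized units, against 0.676 in AA replicate 2, and this library held the highest value of its group in 31 genes. The median coefficient of variation over the module was 21.9% in AA, 16.1% in IGF1 and 14.9% in CTR. Markers of muscle were present in every library, with myog, a myogenic regulator, at 209 to 738 normalized counts, and so were fibroblast collagens, with col1a2 at 59289 to 97997. These levels are not corrected for transcript length and do not give cell proportions.

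In AA compared to CTR, the snoRNP core genes fbl, nop58 and gar1, the subunit gene polr1d, the assembly factors rrp9, ebna1bp2 and bop1, and the genes of nucleophosmin (npm1a) and nucleolin (ncl) were up-regulated, while the helicase gene ddx21 and the assembly factor nop53 were down-regulated. Normalized counts, the raw counts divided by a size factor per library, are used for levels, and edgeR's quasi-likelihood test with Benjamini-Hochberg adjustment over all 35575 contigs for calls at an adjusted p of 0.05 or less. Each gene was read from its contig with the highest mean count. Of the 62 genes, 9 were higher in AA, or 14.5% against 6.57% of all names, and 2 were lower, or 3.23% against 6.57% of all names. DESeq2 called 12 higher and 2 lower, against 1046 higher and 936 lower of all 13162 names. By limma, 6 were higher and 1 lower, against 623 higher and 634 lower of all names. With no normalization beyond the library size the counts were 14 higher and 1 lower, against 1236 higher and 556 lower of all names. The median log2 fold-change of all names moved to 0.17 there, against 0.03 with TMM normalization. The log2 fold-change was positive in 42 of 62 genes (67.7%, against 51.7% of all names), with a median of 0.17.

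At 2-fold or more, 4 genes were higher by edgeR (6.45%, background 4.03%), 4 by DESeq2 and 2 by limma, and 0 were lower by edgeR (background 2.96%), where edgeR at an unadjusted p under 0.05, DESeq2 and limma also gave 0 lower. The 4 genes were polr1d, rrp9, ebna1bp2 and npm1a, npm1a lying just inside the minimum at a log2 fold-change of 1.13 and nop58 just outside it at 0.94. All 3 AA libraries lay above all CTR libraries in 22 genes (35.5%, background 16.4%) and below them in 2 genes (3.23%, background 16.2%). Relative to the mean of CTR, the median log2 difference over the module was 0.17, 0.26 and 0.39 in AA replicates 1 to 3, against 0.02, 0.05 and −0.08 for all names. Leaving out AA replicate 3, 7 genes were higher and 1 was lower, and the median was 0.22. Without CTR replicate 1, CTR replicate 3 or AA replicate 2, 5 genes were higher. The number lower was 1 without CTR replicate 2 or 3, AA replicate 1 or 3, or any IGF1 replicate.

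**Figure D1:**
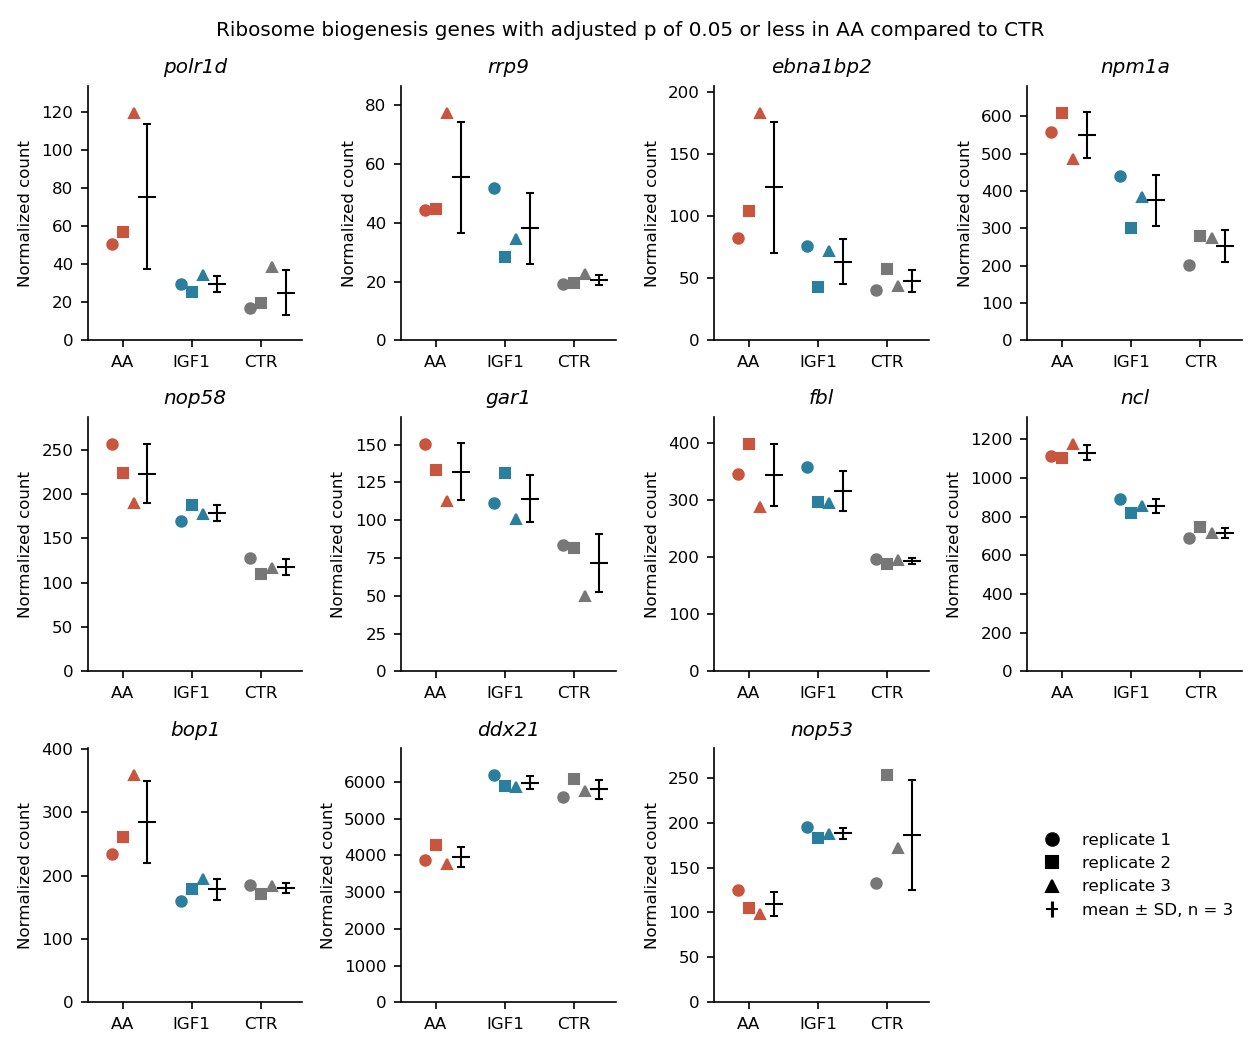
Normalized counts (linear axes from 0) of the 11 genes called in AA compared to CTR at an adjusted p of up to 0.05, in each AA, IGF1 and CTR library, with the mean and SD of each group as a bar. Among the 9 higher genes, the AA libraries lie above the CTR libraries in every panel, and in ddx21 and nop53 they lie below.

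Among the 5 Pol I subunits, polr1d was up-regulated in AA. This gene encodes a small subunit that Pol I shares with RNA polymerase III, and it had 50.8, 56.8 and 119.5 normalized counts in AA, 29.8, 25.6 and 34.2 in IGF1, and 16.9, 19.7 and 38.5 in CTR. All AA libraries were above all CTR libraries, and AA replicate 3 stood far above the other AA libraries. The log2 fold-change was 1.38 ± 0.42 (SE, fold 2.60, edgeR adjusted p = 0.036). The call was lost without CTR replicate 1 or 2, AA replicate 2 or 3, or IGF1 replicate 3 (adjusted p 0.0516 to 0.134), and without AA replicate 3 the log2 fold-change was 1.07. It was also lost with only the groups compared in the fit (0.055), with counts summed per gene name (0.056), with limma (0.053) and after thinning all libraries to the shallowest (0.14).

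The other Pol I subunits did not pass the test. The polr1b gene, which encodes a large subunit of the catalytic core, had 129, 140 and 169 normalized counts in AA, against 77.9, 126 and 67.5 in CTR. The groups did not overlap (log2 fold-change 0.65 ± 0.26, adjusted p = 0.12). For polr1c, the partner of polr1d that is also shared with RNA polymerase III, the AA libraries had 55.0, 50.0 and 42.2 and the CTR libraries 41.0, 25.6 and 36.4 normalized counts (log2 fold-change 0.54, adjusted p = 0.38). The largest subunit, polr1a, had overlapping groups (log2 fold-change 0.19, adjusted p = 0.61). The polr1e subunit had 74.1, 56.8 and 14.1 in AA, against 53.0, 82.5 and 62.6 in CTR, which gave −0.26 on the log2 scale (adjusted p = 0.71). Summed over the 5 subunits, AA libraries were at 1.39, 1.27 and 1.41 times the CTR mean, above the CTR libraries at 0.88, 1.13 and 0.99.

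The pair of UBF genes had fold-changes of opposite sign, neither past the test. The ubtfl libraries were at 220, 218 and 253 normalized counts in AA, against 175, 165 and 112 in CTR (log2 fold-change 0.58 ± 0.23, adjusted p = 0.11), and all 9 of its contigs had a positive value, 1 of them with an adjusted p of 0.05 or less. For ubtf, AA had 88.9, 54.1 and 98.4 and CTR 130, 92.7 and 123 (log2 fold-change −0.65 ± 0.28, adjusted p = 0.15), with negative values in all 7 contigs. The ubtf groups overlapped and those of ubtfl did not. Contigs of a name come from 1 assembled gene and can share reads, so they are not separate measurements.

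The box C/D snoRNP core includes fibrillarin (fbl), the methyltransferase, and the scaffold proteins nop56 and nop58. In AA, fbl was up-regulated with 345, 398 and 288 normalized counts, against 197, 188 and 195 in CTR. The lowest AA library was well above the highest CTR library, and the log2 fold-change was 0.86 ± 0.17 (fold 1.81, adjusted p = 0.0027). The nop58 gene was also up-regulated, at 256, 223 and 190 in AA, against 128, 110 and 116 in CTR (log2 fold-change 0.94 ± 0.19, fold 1.91, adjusted p = 0.0030). A further core gene, nop56, differed little, with 531, 517 and 555 in AA and 497, 520 and 486 in CTR (log2 fold-change 0.07 ± 0.13, adjusted p = 0.80). Both calls held in every alternative but the thinning of all libraries to the shallowest, where the adjusted p was 0.064 for fbl and 0.059 for nop58.

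In the box H/ACA snoRNP core, gar1 was up-regulated and nhp2 and nop10 had positive values that did not pass the test. The gar1 libraries were at 150, 133 and 112 normalized counts in AA, against 83.5, 81.8 and 49.9 in CTR. The groups were separate, and the log2 fold-change was 0.92 ± 0.26 (fold 1.89, adjusted p = 0.026). The adjusted p was 0.156 without CTR replicate 3, 0.0885 without AA replicate 1 and 0.0844 without AA replicate 2, and 0.070 with summed counts, 0.0504 with limma and 0.43 after thinning. For nop10, a further protein of the particle, AA had 74.1, 77.8 and 183 and CTR 61.0, 71.5 and 38.2 (log2 fold-change 0.79, adjusted p = 0.15). For nhp2, AA had 80.4, 91.3 and 91.4 and CTR 61.8, 51.8 and 63.7 (log2 fold-change 0.55, adjusted p = 0.29). AA libraries lay above CTR libraries in all 3 genes (background 16.4%). The sum of these genes was 1.62, 1.61 and 2.06 times the CTR mean in AA, against 1.1, 1.09 and 0.81 in CTR.

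**Figure D2:**
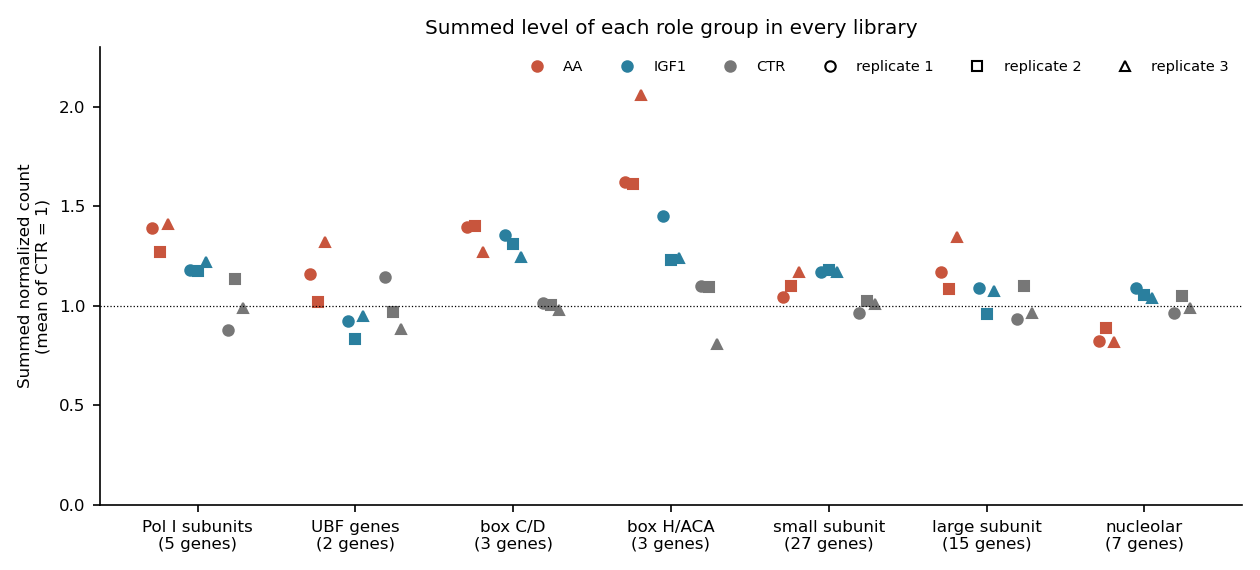
Summed normalized count of each role group, divided by the mean of the CTR libraries (linear axis from 0), for each AA, IGF1 and CTR library. The snoRNP groups, the Pol I subunits and the small-subunit group lie above CTR in all AA and all IGF1 libraries. The nucleolar group, which holds ddx21, lies between 0.82 and 0.89 in AA.

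Of the 27 genes of the small-subunit processome and of small-subunit maturation, 1 was higher in AA (3.70%, against 6.57% of all names). That share was below the background, and 0 were lower (background 6.57%). A positive value was found in 17 genes (63.0%, against 51.7% of all names), with a median of 0.10. The called gene, rrp9, encodes a protein that binds the U3 snoRNA, and it had 44.4, 44.6 and 77.3 normalized counts in AA, 51.7, 28.5 and 34.4 in IGF1, and 19.3, 19.7 and 22.6 in CTR. All AA libraries were above the CTR libraries (log2 fold-change 1.29 ± 0.39, fold 2.44, adjusted p = 0.037), but from only 21, 66 and 11 raw counts. The call was lost without any of the AA or CTR replicates in turn or IGF1 replicate 3, at an adjusted p of 0.0556 to 0.109. It was also lost with no filter on low counts (0.075), with only the groups compared (0.054), with limma (0.053) and after thinning (0.36).

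Some genes of the processome, heatr1, utp20 and wdr36 among them, were high in AA without passing the test. Others were near CTR, with log2 fold-changes of 0.13 for bms1, −0.03 for nop14, −0.12 for nol6 and −0.13 for wdr43. The heatr1 libraries were at 106, 94.0 and 127 normalized counts in AA, against 79.5, 62.8 and 53.4 in CTR (log2 fold-change 0.68, adjusted p = 0.10). For utp20 these were 88.9, 90.6 and 127 in AA, against 52.2, 38.0 and 58.3 in CTR (log2 fold-change 0.95, adjusted p = 0.061). For heatr1 and utp20, as for wdr36, the AA libraries lay above all CTR libraries. That held for 22.2% of the group, against 16.4% of all names. Of the 7 wdr36 contigs, 6 had a positive value in AA, with a range of −0.41 to 0.78. The lowest values of this group were those of tsr3, tsr1 and utp4, at log2 fold-changes of −0.51, −0.49 and −0.34, none of them called.

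Of the 15 genes of large-subunit assembly, 2 were higher in AA (13.3%, against 6.57% of all names) and 1 was lower (6.67%, against 6.57%), with a median of 0.10. The ebna1bp2 gene, whose yeast counterpart acts in early large-subunit assembly, had 82.5, 104 and 183 normalized counts in AA, 75.8, 42.7 and 71.9 in IGF1, and 41.0, 57.7 and 43.8 in CTR. Its AA libraries were spread but all above CTR (log2 fold-change 1.24 ± 0.32, fold 2.37, adjusted p = 0.015), with an adjusted p of 0.0515 without CTR replicate 1, 0.0755 without CTR replicate 3 and 0.19 after thinning. The proteins of bop1, pes and wdr12 form the PeBoW complex, needed to process the large-subunit RNA. For bop1, AA had 235, 261 and 359 and CTR 186, 172 and 184 (log2 fold-change 0.59 ± 0.19, fold 1.51, adjusted p = 0.044). That call was lost without any CTR replicate in turn, AA replicate 2 or 3, or IGF1 replicate 1 or 3 (adjusted p 0.0503 to 0.138), and with no filter on low counts (0.14), only the groups compared (0.059), summed counts (0.081), limma (0.055) and thinning (0.19).

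Its partners did not pass in the main edgeR test. The pes libraries were at 188, 173 and 197 normalized counts in AA, against 105, 137 and 110 in CTR (log2 fold-change 0.64 ± 0.21, adjusted p = 0.051), the value nearest to the threshold from outside. The pes gene was called higher with median-of-ratios normalization (adjusted p = 0.046), no normalization beyond the library size (0.022) and the newer quasi-likelihood method (0.035). DESeq2 (0.028), limma (0.048) and the fit without IGF1 replicate 2 (0.0497) also called pes higher, and 14 other alternatives did not. For wdr12, AA had 97.4, 86.6 and 112 and CTR 74.7, 63.5 and 62.2 (log2 fold-change 0.51, adjusted p = 0.27). In all 3 PeBoW genes the AA libraries were above the CTR libraries. That held for 5 of the 15 large-subunit genes and for 16.4% of all names. The lower gene, nop53, encodes a late large-subunit factor, and had 125, 106 and 98.4 in AA, 195, 182 and 187 in IGF1, and 133, 253 and 172 in CTR. Its log2 fold-change was −0.75 ± 0.24 (fold 0.59, adjusted p = 0.047) with CTR replicate 2 far above the other CTR libraries, and the call held without CTR replicate 1 but was lost without each other library in turn (adjusted p 0.0527 to 0.278). It was also lost with no normalization beyond the library size (0.12), only the groups compared (0.086), limma (0.083) and thinning (0.17).

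The nucleolar proteins outside these machines held the most firmly called genes in each direction. Nucleophosmin (npm1a), a chaperone of the outer nucleolus, had 559, 609 and 485 normalized counts in AA, 439, 302 and 384 in IGF1, and 203, 280 and 274 in CTR. The AA group was separate from the CTR group (log2 fold-change 1.13 ± 0.18, fold 2.19, adjusted p = 0.00033), and all 4 contigs of the name were higher. Its paralog npm1b had 121, 155 and 120 in AA and 145, 177 and 135 in CTR (log2 fold-change −0.17, adjusted p = 0.69). Nucleolin (ncl), which binds ribosomal RNA precursors and ribosomal DNA chromatin, was tightly grouped at 1113, 1104 and 1174 in AA, 891, 821 and 855 in IGF1, and 692, 745 and 715 in CTR (log2 fold-change in AA 0.64 ± 0.12, fold 1.55, adjusted p = 0.0018).

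In contrast, ddx21, an RNA helicase that in human cells acts in Pol I transcription and rRNA processing, had 3865, 4274 and 3754 normalized counts in AA, 6178, 5888 and 5869 in IGF1, and 5574, 6071 and 5743 in CTR. Every AA library was below every library of the other groups (log2 fold-change −0.56 ± 0.10, fold 0.68, adjusted p = 0.0013). The calls of npm1a, ncl and ddx21 in AA held in all 20 alternatives. Because ddx21 made up 28.3% to 32.7% of the module's summed count in AA and 44.4% to 45.0% in CTR, the sum over 62 genes was nearly the same, at 0.98, 1.01 and 1.02 times the CTR mean in AA, against 0.97, 1.05 and 0.98 in CTR. Without ddx21, the sum was 9048 ± 415 in AA, 8275 ± 139 in IGF1 and 7182 ± 307 in CTR (SD, n = 3 each). Of the other nucleolar genes, nolc1, a chaperone of snoRNPs, had 46.6, 90.6 and 49.2 in AA and 105, 107 and 72.1 in CTR (log2 fold-change −0.46, adjusted p = 0.40), and the median of the 7 genes was −0.03, or 0.12 with no normalization beyond the library size.

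Markers of other states moved with AA. Higher were 100% of the proliferation, 73.3% of the muscle and 22.2% of the fibroblast markers, against 6.57% of all names. Lower were 11.1% of the fibroblast markers, against 6.57% of all names. All 11 proliferation markers found were higher (top2a at a log2 fold-change of 3.50, cdk1 at 2.66), and their summed level was 3.88, 3.31 and 3.70 times the CTR mean in AA, against 1.07, 1.03 and 0.89 in CTR. Of 15 muscle markers, 11 were higher, with sums of 1.65, 2.07 and 2.49 in AA, against 0.94, 1.04 and 1.02 in CTR, and of 9 fibroblast markers 2 were higher and 1 lower, with sums of 0.96, 1.03 and 1.03 in AA, against 1.02, 0.96 and 1.03 in CTR. The part of these markers in the ribosome biogenesis values was not tested, and in bulk libraries a different share of cells of a type cannot be told apart from a different amount of RNA per cell.

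**Figure D3:**
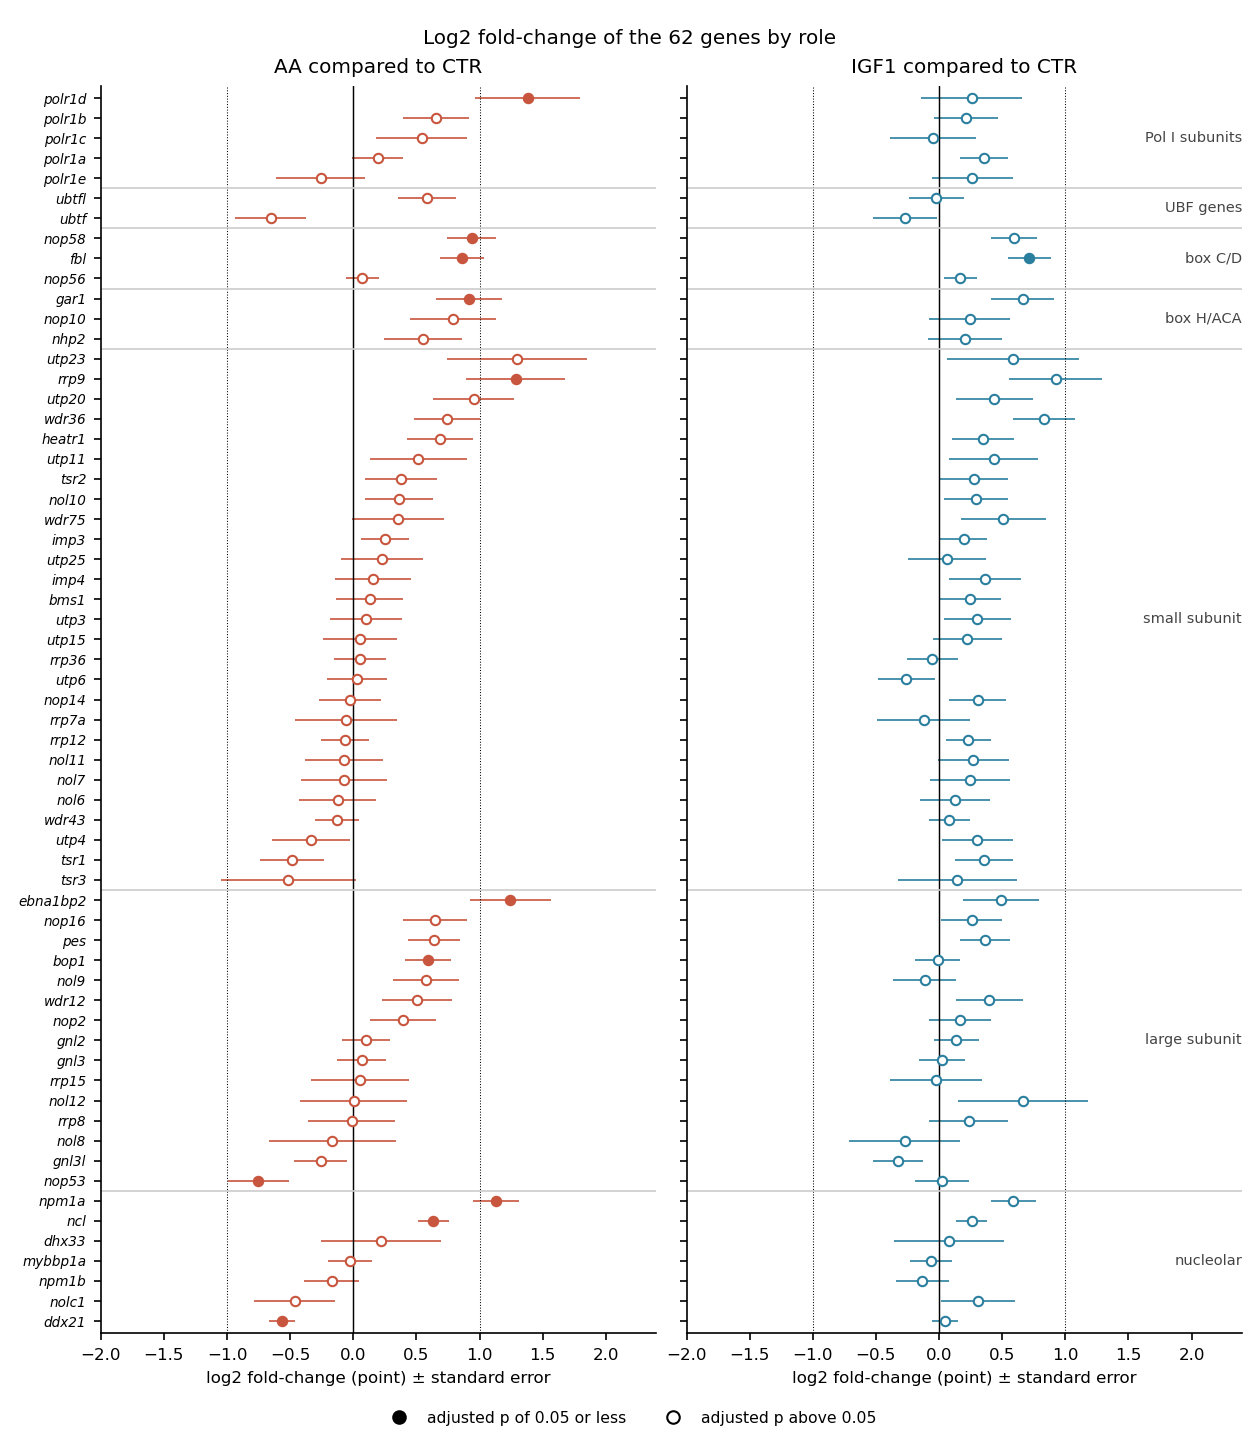
Log2 fold-change with its standard error for the 62 genes, by role, in AA compared to CTR (left) and IGF1 compared to CTR (right), with dotted lines at 2-fold and filled points for an adjusted p of 0.05 or less. AA values range from −0.75 to 1.38 with 11 filled points, and IGF1 values from −0.32 to 0.93 with 1 filled point.

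In IGF1 compared to CTR, fibrillarin was the called gene. By edgeR, 1 of 62 genes was higher (1.61%, against 3.11% of all names) and 0 were lower (background 3.31%). The share called was thus not above the background by edgeR, while the share that DESeq2 called higher was above that of all names. At an unadjusted p under 0.05, 7 were higher and 0 lower, while 2440 of all 13162 names, a larger share, passed in either direction. DESeq2 called 4 higher and 0 lower, against 573 higher and 558 lower of all names. By limma, 1 was higher and 0 lower, against 247 higher and 264 lower of all names. No gene was called at 2-fold in either direction by edgeR, DESeq2 or limma, or at an unadjusted p under 0.05 (background 1.3% higher and 1.63% lower). The count higher was 0 without CTR replicate 2 or 3 or IGF1 replicate 1, 4 without AA replicate 3 and 2 without IGF1 replicate 2.

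The log2 fold-change in IGF1 was positive in 49 of 62 genes (79.0%, against 54.8% of all names), with medians of 0.24 for the module and 0.05 for all names. All IGF1 libraries were above all CTR libraries in 14 genes (22.6%, background 16.3%) and below them in 1 gene, gnl3l (1.61%, background 13.9%). The median log2 difference to the CTR mean was 0.21, 0.15 and 0.20 in IGF1 replicates 1 to 3, against 0.06, 0.02 and 0.06 for all names. The summed count of the 62 genes was 1.13, 1.08 and 1.09 times the CTR mean in IGF1, against 0.97, 1.05 and 0.98 in CTR, and each IGF1 library was above each CTR library.

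For fbl, the IGF1 libraries were at 357, 296 and 295 normalized counts, against 197, 188 and 195 in CTR, a complete separation. The log2 fold-change was 0.72 ± 0.17 (fold 1.64, edgeR adjusted p = 0.013), and the adjusted p was 0.0604 without CTR replicate 2, 0.0697 without CTR replicate 3, 0.0982 without IGF1 replicate 1, 0.067 with summed counts and 0.43 after thinning. Its partner nop58 had 169, 188 and 178 in IGF1 and 128, 110 and 116 in CTR (log2 fold-change 0.59 ± 0.18, adjusted p = 0.067). The other partner, nop56, had 573, 581 and 539 in IGF1 and 497, 520 and 486 in CTR (log2 fold-change 0.17, adjusted p = 0.56). All 3 box C/D core genes of the module had separate groups, with IGF1 above CTR (background 16.3%). Their sum was 1.35, 1.31 and 1.25 times the CTR mean in IGF1, against 1.01, 1.01 and 0.98 in CTR.

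Just outside the threshold lay wdr36, a processome scaffold, and npm1a. The wdr36 libraries were at 130, 142 and 96.9 normalized counts in IGF1, against 73.1, 68.6 and 62.2 in CTR (log2 fold-change 0.83 ± 0.25, adjusted p = 0.053). Of the 7 wdr36 contigs, 6 had a positive value and 0 were called, with a range of −0.21 to 0.89. For npm1a the log2 fold-change was 0.59 ± 0.18 (adjusted p = 0.054), and 3 of its 4 contigs were called higher. The gar1 value was 0.66 ± 0.25 (adjusted p = 0.15), from 111, 131 and 101 in IGF1 and 83.5, 81.8 and 49.9 in CTR. For rrp9 it was 0.93 ± 0.37 (adjusted p = 0.18), and all of these genes had IGF1 libraries above the CTR libraries (background 16.3%).

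By role, 24 of 27 small-subunit genes had a positive value in IGF1, with a median of 0.27, and their sum was 1.17, 1.18 and 1.17 times the CTR mean in IGF1, against 0.97, 1.02 and 1.01 in CTR. The 15 large-subunit genes had a median of 0.14 with 10 positive values, and bop1 was level with CTR, at 161, 180 and 195 in IGF1 and 186, 172 and 184 in CTR (log2 fold-change −0.01, adjusted p = 0.99). Among Pol I subunits, polr1a had 171, 191 and 158 in IGF1 and 118, 142 and 139 in CTR, without overlap (log2 fold-change 0.36 ± 0.19, adjusted p = 0.35). The polr1d value was 0.26 (adjusted p = 0.82), and those of polr1b, polr1c and polr1e were 0.21, −0.05 and 0.26. The UBF genes ubtf and ubtfl were at −0.27 and −0.02, and ddx21 at 0.04 ± 0.10 (adjusted p = 0.90).

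Other markers moved with IGF1 as well. Higher were 77.8% of the fibroblast, 20% of the muscle and 18.2% of the proliferation markers, against 3.11% of all names. Lower were 6.67% of the muscle markers, against 3.31% of all names. Of the 9 fibroblast markers, 7 were higher, with sums of 1.45, 1.49 and 1.50 times the CTR mean in IGF1, against 1.02, 0.96 and 1.03 in CTR. Of the 15 muscle markers, 3 were higher and 1 lower, and 11 had a positive value, with a median log2 fold-change of 0.51. The sums of these muscle markers were 0.92, 0.96 and 0.99 in IGF1, against 0.94, 1.04 and 1.02 in CTR. Of the 11 proliferation markers, 2 were higher, with sums of 2.01, 1.45 and 1.52 in IGF1, against 1.07, 1.03 and 0.89 in CTR. Their part in the ribosome biogenesis values was not tested.

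AA compared directly to IGF1 tests the difference between the treatments. By edgeR, 0 of 62 genes were higher in AA (background 4.24%) and 2 were lower (3.23%, background 4.8%), ddx21 and tsr1. At an unadjusted p under 0.05, 7 genes were higher in AA and 4 lower, while 2966 of all 13162 names, a larger share, passed in either direction. DESeq2 called 3 higher and 3 lower, against 736 higher and 743 lower of all names. By limma, 1 was higher and 2 were lower, against 418 higher and 537 lower of all names. At 2-fold, edgeR called 0 higher (background 2.7%) and 0 lower (background 2.05%), while 1 was higher and 0 lower at an unadjusted p under 0.05, DESeq2 called 0 in either direction, and limma called 0 higher and 1 lower. All AA libraries were above all IGF1 libraries in 15 genes (24.2%, background 13%) and below them in 5 genes (8.06%, background 14.6%), namely ddx21, nop53, rrp12, tsr1 and utp4. The count higher was 1 without AA replicate 1 or AA replicate 3, and the count lower 1 without CTR replicate 3, AA replicate 1 or 3, or any IGF1 replicate.

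For ddx21 the log2 fold-change between AA and IGF1 was −0.61 ± 0.10 (fold 0.66, adjusted p = 0.00079), and it held in all 20 alternatives. The tsr1 gene, which acts in late maturation of the small subunit, had 74.1, 151 and 70.3 normalized counts in AA, 191, 222 and 181 in IGF1, and 145, 156 and 157 in CTR. AA replicate 2 was close to the CTR libraries, and the log2 fold-change between AA and IGF1 was −0.84 ± 0.25 (fold 0.56, adjusted p = 0.046), a call that held without AA replicate 2 but was lost without each other library in turn (adjusted p 0.0538 to 0.193), with no normalization (0.10), only the groups compared (0.091), the newer quasi-likelihood method (0.056) and summed counts (0.082). The next genes by adjusted p did not pass by edgeR. They were nop53 at −0.77 (0.055), bop1 at 0.60 (0.056), ncl at 0.38 (0.063), npm1a at 0.54 (0.071), polr1d at 1.12 (0.12), ubtfl at 0.61 (0.12), nol9, a polynucleotide kinase of large-subunit RNA processing, at 0.69 (0.13), and nolc1 at −0.77 (0.17). DESeq2 called nop53 (adjusted p = 0.040), bop1 (0.028), ncl (0.017) and npm1a (0.038). Of the 20 alternatives, 6 called nop53, 4 bop1, 5 ncl and 4 npm1a. For fbl, higher in AA and in IGF1 than in CTR, the difference between AA and IGF1 was 0.14 ± 0.17 (adjusted p = 0.72).

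The rest of the machinery was read from lists of known factors outside the name rule. Of 79 other ribosome biogenesis genes, 2 were higher in AA (2.53%, against 6.57% of all names) and 4 lower (5.06%, against 6.57%), neither share above the background, at a median of 0.01 on the log2 scale (−0.07 with limma) with 41 positive values. The higher genes were ppan, a large-subunit assembly factor, at 188, 172 and 183 normalized counts in AA, against 92.4, 102 and 89.8 in CTR (log2 fold-change 0.92, adjusted p = 0.0062), and nifk, a partner of Ki-67, at 0.76 (adjusted p = 0.028). The lower genes were riok1, a kinase of late small-subunit maturation, at −1.14 (adjusted p = 0.0011), gtpbp4 at −0.67 (adjusted p = 0.00061), nsa2 at −0.65 (adjusted p = 0.0019) and ddx52 at −0.65 (adjusted p = 0.041). In IGF1, 59 of the 79 were positive with a median of 0.14, and 0 were called by edgeR, DESeq2 or limma. At an unadjusted p under 0.05 in edgeR there were 6, against 2440 of all 13162 names, a larger share. The sum of the 79 was 0.88, 0.83 and 0.86 times the CTR mean in AA. It was 1.06, 1.01 and 1.03 in IGF1, against 0.99, 1.02 and 0.99 in CTR. In AA compared to IGF1, edgeR called 6 lower (7.59%, background 4.8%) and 0 higher (background 4.24%). With no normalization beyond the library size, 1 was lower and 1 higher, against 383 lower and 981 higher of all 13162 names.

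**Figure D4:**
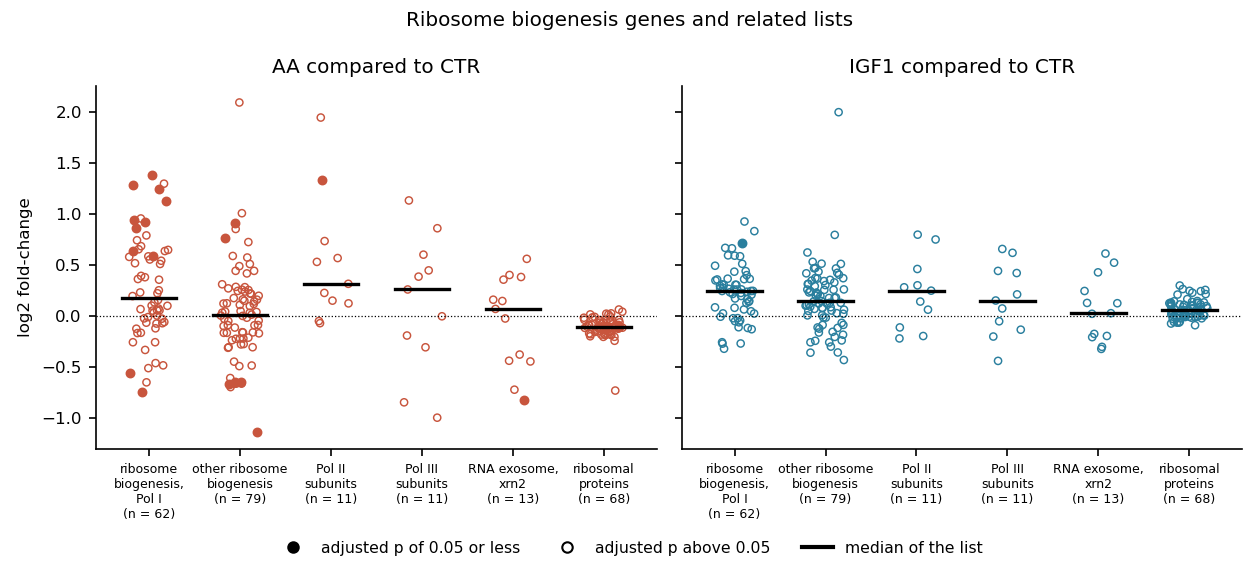
Log2 fold-change of every gene of the module and of 5 related lists, in AA compared to CTR (left) and IGF1 compared to CTR (right), with the median of each list as a bar and filled points for an adjusted p of 0.05 or less. The module has a median of 0.17 in AA and 0.24 in IGF1, and the ribosomal proteins lie close to their medians of −0.11 and 0.06.

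The 5 Pol I initiation and termination factors found outside the module (rrn3, taf1a, taf1b, ttf1 and ercc6) had 0 genes called by edgeR, DESeq2 or limma in AA or IGF1. At an unadjusted p under 0.05 in edgeR there were 0 as well, against 3524 of all 13162 names in AA and 2440 in IGF1. By edgeR, 6.57% of all names were higher and 6.57% lower in AA, and 3.11% and 3.31% in IGF1. The gene rrn3, whose product links Pol I to growth signals, was at −0.08 in AA and 0.30 in IGF1. The 11 RNA polymerase II subunits had medians of 0.31 in AA and 0.25 in IGF1. In AA, polr2gl was called higher at 1.33 (edgeR adjusted p = 0.028), which is 9.09% of the list, against 6.57% of all names. In IGF1, 0 were called by the 3 tools and 0 were at an unadjusted p under 0.05. The 11 RNA polymerase III subunits had medians of 0.26 in AA, which turned to −0.19 with limma, and 0.15 in IGF1. By the 3 tools 0 were called, and 2 in AA were at an unadjusted p under 0.05, a smaller share than that of all names. Beside them, the median of the 5 Pol I subunits was 0.54 in AA and 0.26 in IGF1. In AA that median is the value of polr1c, which, like polr1d (1.38), is shared with RNA polymerase III. The other Pol I subunits, polr1a, polr1b and polr1e, were at 0.19, 0.65 and −0.26 in AA. The medians therefore depend on the list that a shared subunit is put in, and the differences between lists were not tested. Of 13 genes of the RNA exosome, its helicase mtrex and the separate 5′ exonuclease xrn2, dis3, a nuclease of the exosome, was lower in AA at −0.83 (edgeR adjusted p = 0.021). That is 7.69% of the list, against 6.57% of all names. The list's median was 0.07 in AA, −0.28 there with limma, and 0.03 in IGF1, −0.01 there without normalization.

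The 68 cytosolic ribosomal protein genes, the proteins that these factors assemble, had a median of −0.11 in AA with 6 positive values, which turned to 0.04 with 52 positive values when no normalization beyond the library size was used. In IGF1 their median was 0.06 with 52 positive values. In AA or IGF1 compared to CTR, 0 were called by edgeR, DESeq2 or limma. At an unadjusted p under 0.05 in edgeR there were 0 in AA and 1 in IGF1, against 3524 and 2440 of all 13162 names. The module's median was 0.32 in AA and 0.21 in IGF1 without normalization, and 0.18 in AA and 0.24 in IGF1 with the median-of-ratios method. Without normalization the median of all names moved as well, from 0.03 to 0.17 in AA and from 0.05 to 0.02 in IGF1. In AA such a common upward shift can turn a negative median but not a positive one. The signs there therefore do not show that the module is firmer than the ribosomal proteins.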

How the data were processed

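The raw count table, as deposited by the authors, holds whole-number counts per annotated contig of a Trinity assembly, to which the trimmed reads were mapped with Bowtie2. The tool that counted the reads is not given in the sources used here, and the submitters' processing notes also name the zebrafish build GRCz11, with no role stated. Contigs and genes carry the names of the annotation, and no coordinates were used. The second deposited table holds signal values, the same counts divided by the authors' DESeq2 size factors, restricted to 35575 contigs averaging at least 10 raw counts. The microRNA libraries and the qPCR were not analysed here.

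The test on the raw counts of these contigs was that of edgeR 4.0.16 under R 4.3.3 (TMM, estimateDisp, glmQLFit and glmQLFTest with the legacy deviance method), with all 9 libraries and the group as the only term, and Benjamini-Hochberg adjustment over all contigs. A standard error was taken as the absolute log2 fold-change divided by the root of F. The fit was also run on counts simulated with a spread that depended on the mean count alone. That run does not show how often calls are wrong in these libraries. Groups come from the sample titles and treatments. The genes of the module, the related lists and the marker lists were chosen with earlier results of these data known. Named in the text are the 10 genes with the smallest adjusted p in each comparison, called genes against the majority direction, and a set of core genes whatever their values. Other genes named were chosen after their values were seen. Counting without molecular identifiers covers reads, not molecules. Alternatives were the DESeq2 1.42.0 Wald test, limma 3.58.1 on log2 of the normalized count plus 1, other normalizations and filters, the newer quasi-likelihood method, a fit of the groups compared only, a replicate block, counts added up over the contigs of a name, thinning to the shallowest library in 5 draws, and each library left out. Libraries of the same number had residual correlations of −0.0267 to 0.127 over 9 pairs, and were not treated as paired.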

Additional observations from a re-analysis of the deposited data

How the results depend on the processing

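No called gene reversed its direction in the alternatives run. In AA compared to CTR, the genes higher were 9 and became 14 with no normalization beyond the library size, 3 after thinning all libraries to the shallowest, and 5 to 11 with each library left out. The genes lower were 2 and became 1 with no such normalization, with only the groups compared in the fit, with limma and after thinning, and 1 to 2 with each library left out. The median log2 fold-change was 0.32 without that normalization, 0.32 after thinning and 0.15 to 0.28 with each library left out. In IGF1 compared to CTR, the genes higher were 1 and became 2 with median-of-ratios normalization and with no filter on low counts, 4 with only the groups compared, with the newer quasi-likelihood method and with DESeq2, 0 with counts summed per gene name and after thinning, and 0 to 4 with each library left out. The median there was 0.21 without normalization and with summed counts, 0.205 after thinning and 0.1978 to 0.2754 with each library left out. In AA compared to IGF1, the genes higher were 0 and became 1 with median-of-ratios normalization, the newer quasi-likelihood method and limma, 4 without normalization, 3 with DESeq2 and 0 to 1 with each library left out. The genes lower were 2 and became 1 without normalization, with only the groups compared and with summed counts, and 1 to 2 with each library left out. The median there was 0.24 without normalization and 0.0001 to 0.0881 with each library left out. Counts over all names moved with the setting as well. In AA compared to CTR, 865 of the 13162 names were higher in the main fit and 1236 with no such normalization. They were 893 with median-of-ratios normalization, 1046 with DESeq2 and 623 with limma. In IGF1 compared to CTR, 409 of all names were higher in the main fit, 408 with median-of-ratios normalization and 358 with no such normalization. In AA compared to IGF1, 558 of all names were higher and 632 lower in the main fit. These were 581 and 623 with median-of-ratios normalization, and 981 and 383 with no such normalization. For the other settings no count over all names was made, so changes in the module's counts are not read as results about the module. The causes of the changes between settings were not tested, except that thinning leaves fewer counts and leaving out a library fewer samples.

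With the replicate number as a block, 10 genes were higher and 2 lower in AA compared to CTR, 2 higher and 0 lower in IGF1 compared to CTR, and 2 higher and 4 lower in AA compared to IGF1. The share of all names called with the block was not counted, so these counts have no background beside them. Whether libraries of the same number share a culture is not stated. Of 9 residual correlations, 1 was above 0.1, which does not settle it. The depth of AA replicate 3, where 14 of 62 genes had under 10 counts, limits what can be called in the low genes.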

Other observations

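Of 3 adipocyte markers found, lpl was higher in AA, with a log2 fold-change of 1.16 (edgeR adjusted p = 0.019, not called by limma), while cebpa and plin1 were at −0.76 (adjusted p = 0.24) and −1.03 (adjusted p = 0.54), and the median was −0.76. Their summed level, of which lpl made the larger part, was 1.1, 2.08 and 1.2 times the CTR mean in AA, 1.64, 2.20 and 1.23 in IGF1, against 0.98, 1.0 and 1.02 in CTR. Of 4 endothelial markers, tek was higher in IGF1 at 1.52 (adjusted p = 0.046), and cdh5 was at −1.11 (adjusted p = 0.067), with 42.5, 34.2 and 64.5 normalized counts in IGF1, all below 95.6, 128 and 106 in CTR. DESeq2 called 1 endothelial marker higher and 1 lower in IGF1, limma called none, and their summed level was 1.38, 1.1 and 0.69 times the CTR mean in AA, 1.27, 0.98 and 1.08 in IGF1, against 1.04, 0.97 and 0.99 in CTR. Markers of leucocytes and of neural cells matched no tested name.

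Name by name, nop16, a large-subunit assembly factor, was not called in AA compared to CTR in the contig it was read from (log2 fold-change 0.65, edgeR adjusted p = 0.11), while 2 of its 3 contigs were called higher. Over all their contigs, 11 of the 62 genes had at least 1 contig called higher in AA and 2 had at least 1 called higher in IGF1. A name with several contigs passes this rule more easily, and 37 of the 62 had more than 1 tested contig. The share of all names that pass it was not counted, so these counts are not read as results about the module.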
